A study of Mus musculus with 15 samples.

Results

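Chaperones are proteins that help other proteins fold, keep them soluble or hand them on for degradation. In the endoplasmic reticulum (ER), membrane sensors detect misfolded protein and switch on chaperone, disulfide isomerase and degradation genes, a program called the unfolded protein response. In the cytosol the heat shock factors drive Hsp70, Hsp90 and J-protein genes, and muscle fibres also hold small heat shock proteins that bind filaments and the sarcomere. Here 38 mouse genes of these systems were followed in gastrocnemius muscle with and without Cpt1b in skeletal muscle, and all were chosen by name. The table of tag counts lists 37 of them among 13602 genes, and Manf was not analysed here. Low-count filtering left 35 members among the 11062 genes tested, with Sdf2l1 and Ern1 falling below it.

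The series compared 8 control and 7 knockout libraries, from as many male mice by the labels. Controls were wild type carrying the floxed Cpt1b gene, and knockouts had Cpt1b deleted in skeletal muscle only, as the labels describe them. Cpt1b is the muscle carnitine palmitoyltransferase through which long-chain fatty acids enter mitochondria. All 15 mice had chow for 12 to 14 weeks by the series text and the sample titles, whereas the diet field of every sample reads 45% HFD. The Cre driver, the strain and the age at dissection are not given in the sources used here. Each library counts SAGE tags, short reads taken next to a cutting site towards the 3′ end of the mRNA. A tag count does not grow with transcript length, so levels of different genes can be set side by side, within the limits of how well each tag is captured.

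Library totals ran from 8334436 tags in control 1 to 19397255 in knockout 4. Levels are CPM, tag counts relative to the library total and scaled by TMM, and differences are log2 fold changes of knockout minus control with the standard error (SE) from edgeR. A gene was called at an adjusted p below 0.05 over all genes tested. The targeted gene was lower in the knockouts, at 7.64 ± 3.17 CPM in controls (SD, n = 8) and 3.79 ± 1.64 CPM in knockouts (SD, n = 7). Its log2 difference was -1.03 ± 0.31 (edgeR adjusted p = 0.103, two-sided exact permutation p = 0.003885 over 6435 splits). The Cpt1b tag may lie outside the deleted part, and then it does not check the genotype labels. Tags of skeletal muscle fibre markers summed to between 64518 and 77797 CPM in controls and between 56017 and 81772 CPM in knockouts, and all 8 of these markers had counts in every library. Of these 8, Tnnt3, the fast troponin T, was called lower (-0.65 ± 0.13, edgeR adjusted p = 0.00629). Of the markers of other cell types, the fibroblast list summed to 2258 to 3943 CPM in controls and 1270 to 3153 CPM in knockouts, with 0 of its 7 genes called. The median sum was 3552 CPM in controls and 1851 CPM in knockouts. Col1a1, Col1a2, Dpt and Dcn were lower at an unadjusted p below 0.05, with differences of -1.03, -0.64, -0.41 and -0.26. Col3a1 differed by -0.28, and Lum and Pdgfra by 0.16 and 0.03. Slow-twitch fibre markers summed to 1493 to 3898 CPM and 2463 to 4242 CPM, with 1 of 7 called. This was Atp2a2, which was higher in knockouts (0.84 ± 0.17, edgeR adjusted p = 0.00897). Myl2, Tnni1 and Tnnc1 were also higher at an unadjusted p below 0.05, with differences of 0.82, 0.72 and 0.68. Tnnt1, Myh7 and Myl3 differed by 0.30, 0.16 and 0.06. Adipocyte markers summed to 89.9 to 174 CPM and 82.5 to 257 CPM, with Lep called lower (-1.83 ± 0.43, edgeR adjusted p = 0.0295) and Pparg higher (0.42 ± 0.11, edgeR adjusted p = 0.0447). Immediate early genes, which respond within minutes to handling and contraction, summed to 114 to 166 CPM and 111 to 143 CPM. None of the 7 tested was called, and Atf3, Fos and Junb had an unadjusted p below 0.05, with differences of -1.20, -0.72 and -0.45. Macrophage markers summed to 46.2 to 95.6 CPM and 45.3 to 75.4 CPM. The part of cell makeup in any value below was not tested, and in whole muscle fewer cells of a type and less RNA per cell cannot be told apart. Control 7 and knockout 4 lay farthest along the first principal component, which held 44.6% of the variance of all genes. They were also the libraries with the most tags, 16238258 and 19397255. Control 1, with the fewest, lay at the other end. The part of library depth in that axis was not tested.

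None of the 35 members passed the test, and none had groups that did not overlap. Over all genes tested 2.17% were called, 240 genes with 185 higher and 55 lower, and 1.19% had groups that did not overlap. DESeq2 called 1 member, Hspb1, which was lower in the knockouts, beside 3.41% of all genes it tested. With voom 0 members were called, beside 2.11% of all genes. At an unadjusted p below 0.05 there were 5 members of 35, or 14.3%, beside 13.6% of all genes. These were Hspb1 and Hspb8, lower in the knockouts, and Hsp90ab1, Hsph1 and Dnajb9, higher in them, with edgeR adjusted p between 0.0872 and 0.332. The median log2 difference was -0.08 over members and 0.00 over all genes tested, and the median size without sign was 0.19 and 0.20. The data also bound how far most members could have moved. The 95% interval of the fold change lay within 2-fold in either direction for 31 of 35 members (88.6%, beside 82.8% of all genes). It lay within 1.5-fold for 17 of 35 (48.6%, beside 40.1%).

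**Figure D1:**
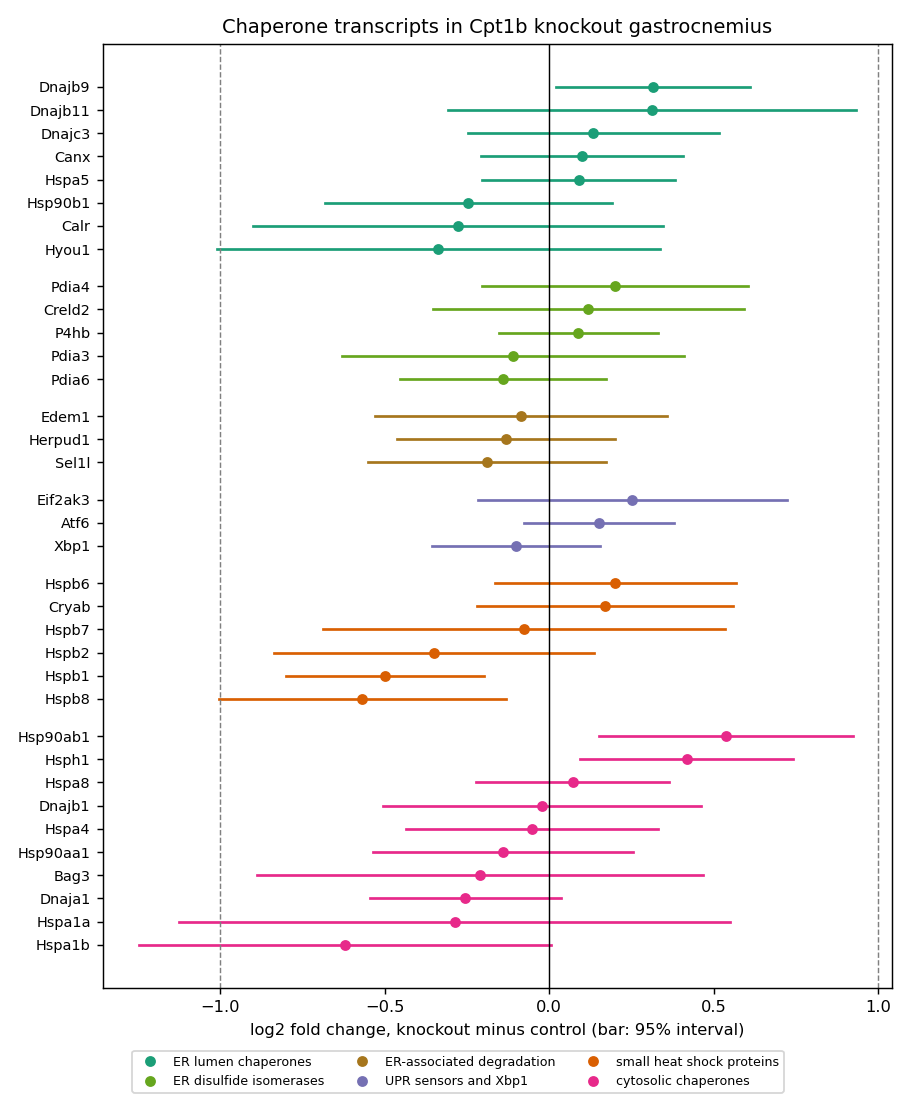
Log2 fold change of each of the 35 tested chaperone genes, knockout minus control, with its 95% interval from edgeR; the horizontal axis is in log2 units, dashed lines mark a 2-fold change and colours mark the 6 classes. Intervals of 31 of 35 genes lie within 2-fold, and the largest differences are those of Hspb8, Hspb1 and Hspa1b on the lower side and Hsp90ab1 and Hsph1 on the higher side, none of which passed the adjusted threshold.

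The ER chaperones and their co-factors gave 0 calls among 8 tested genes, with 5 differences positive and 3 negative and a median of 0.09. Hsp90b1 (GRP94), the Hsp90 of the ER, had the most tags of the class. Its level was 248 CPM at the lowest, 420.2 at the median and 595 at the highest in controls, and 196, 378 and 492.5 CPM in knockouts. The ranges overlap over most of their length, and the log2 difference of -0.25 ± 0.21 corresponds to 0.84-fold with a 95% interval of 0.62 to 1.14. Hspa5 (BiP), the ER Hsp70 whose release from the sensors accompanies the unfolded protein response, was at 203, 279 and 350.4 CPM in controls. In knockouts its lowest, median and highest levels were 242, 297 and 382 CPM. Its fold change was 1.06 with an interval of 0.87 to 1.30, so a rise of Hspa5 beyond 1.30-fold lies outside this interval.

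Dnajb9 (ERdj4), a J-protein that partners BiP and is among the genes switched on by Xbp1, had the smallest unadjusted p among the ER genes. In controls the lowest level was 20.7 CPM, the median 25.8 and the highest 36.8, and in knockouts 30.5, 33.7 and 38.2 CPM. All 7 knockouts were above the control median, while controls 3, 4 and 8, at 36.8, 32.01 and 36.2 CPM, lay within the knockout range. The log2 difference was 0.32 ± 0.14 (unadjusted p = 0.0371, edgeR adjusted p = 0.332). The other genes of the class showed no common direction. The lectin chaperones calnexin and calreticulin, which hold glycoproteins during folding, had log2 differences of 0.10 ± 0.15 (Canx) and -0.28 ± 0.30 (Calr). Calr was at 2.29 CPM in knockout 4 and at 9.71 CPM or above in each of the other 14 libraries, and without knockout 4 its difference was -0.08. Hyou1 (GRP170), a nucleotide exchange factor for BiP, differed by -0.34 ± 0.32, and its interval of 0.50-fold to 1.26-fold is the only one of the class to reach 2-fold. Without knockout 4 the Hyou1 difference was -0.16. The J-proteins Dnajb11 and Dnajc3 differed by 0.31 ± 0.30 and 0.13 ± 0.18. For Dnajb11 the mean rested on single libraries, since control 7 had 14.0 CPM and knockout 4 had 20.7 CPM while the other 13 lay between 4.74 and 9.83 CPM. Without knockout 4 the Dnajb11 difference was -0.06. Sdf2l1, a lumenal partner of Dnajb11, had at most 25 tags in any library, and without the filter its difference was -0.07 ± 0.61 (unadjusted p = 0.915).

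The disulfide isomerases, which form and rearrange disulfide bonds, gave 0 calls among 5 genes and a median difference of 0.09. P4hb (PDI) had the most tags, at 68.7, 74.4 and 89.7 CPM (lowest, median and highest) in controls and 68.3, 77.8 and 98.6 CPM in knockouts. Its log2 difference of 0.09 ± 0.12 has an interval of 0.90-fold to 1.26-fold, one of the narrowest of the list. Pdia4 (ERp72), with the fewest tags of the class, had the smallest unadjusted p. Its levels were 1.37, 1.52 and 1.83 CPM in controls and 1.21, 1.66 and 2.93 CPM in knockouts. Knockouts of Pdia4 spread to both sides of the control range, and the difference was 0.20 ± 0.19. Pdia3, which works with calnexin and calreticulin, differed by -0.11 ± 0.25, Pdia6 by -0.14 ± 0.15 and Creld2 by 0.12 ± 0.22. Pdia3 stood at 8.32 to 8.91 CPM in knockouts 5, 6 and 7 and at 17.6 to 25.3 CPM in knockouts 1 to 4, while controls ran from 9.91 to 22.0 CPM.

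All 3 genes of ER-associated degradation had negative differences, between -0.09 and -0.19, and none was called. Herpud1, a membrane scaffold of the degradation complex, had the most tags, with 130.5, 240.9 and 268 CPM in controls and 152, 199.8 and 259.7 CPM in knockouts. Its range in knockouts lies inside that of controls, and the difference was -0.13 ± 0.16. Sel1l, the adaptor of the ubiquitin ligase Hrd1, was at 99.6, 180.2 and 205 CPM in controls and 107, 145 and 183 CPM in knockouts, a difference of -0.19 ± 0.17. Both genes had their lowest value in control 7. Edem1, which marks glycoproteins for degradation, differed by -0.09 ± 0.21.

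Among the sensors, Atf6 had the smallest spread between animals of any member, a biological coefficient of variation of 0.157 against a median of 0.254 over members. Atf6 is cleaved in the Golgi to release a transcription factor, and cleavage is not visible in a tag count. Its level was 10.5, 12.4 and 14.5 CPM in controls and 12.7, 13.9 and 14.9 CPM in knockouts. All 7 knockouts were above the control median, within overlapping ranges, and the difference of 0.15 ± 0.11 did not pass (unadjusted p = 0.181, edgeR adjusted p = 0.555). Eif2ak3 (PERK), the sensor kinase that phosphorylates eIF2α, differed by 0.25 ± 0.22. Ern1 (IRE1α), which splices Xbp1 mRNA, had 0 to 13 tags per library and a difference of 0.56 ± 0.51 without the filter (unadjusted p = 0.290). Xbp1, the class member with the most tags, was at 13.2, 17.1 and 19.7 CPM in controls and 13.3, 15.2 and 17.9 CPM in knockouts. The Xbp1 difference was -0.10 ± 0.12, with an interval of 0.78-fold to 1.11-fold. A tag at the 3′ end does not tell spliced from unspliced Xbp1.

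Some of the ER chaperones and disulfide isomerases share a promoter sequence. The ER members were chosen as genes of the unfolded protein response, so their share of this sequence is not independent of the choice. The ER stress element, searched as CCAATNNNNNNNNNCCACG on both strands, is the bipartite site through which Atf6, with the CCAAT-binding factor NF-Y, drives ER chaperone genes. RefSeq promoters (GRCm38.p6) were found for 30 of 38 members and read over the 250 bases before the annotated start. The other 8, Hyou1, Manf, Atf6, Hspb2, Cryab, Hspa8, Hsp90aa1 and Hsp90ab1, were not searched. The element was found in 7 of 19 ER promoters (36.8%), all of ER chaperones or isomerases and none of the 3 degradation or 3 sensor and Xbp1 promoters. It was in 0 of 11 promoters of small heat shock and cytosolic genes, and in 35 of 27025 promoters of all genes (0.13%). At so low a share over all genes, absence from 11 promoters says little. The 8 elements are shown because they are all the matches among members. Each is printed on the gene's strand with 5 flanking bases at either side in lower case and the element in capitals. Those that begin with CGTGG lie in reverse orientation.
Hspa5, chr2:34772020-34772048, plus strand: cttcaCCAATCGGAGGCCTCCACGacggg
Hsp90b1, chr10:86705633-86705661, minus strand: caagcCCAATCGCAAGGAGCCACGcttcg
Hsp90b1, chr10:86705528-86705556, minus strand: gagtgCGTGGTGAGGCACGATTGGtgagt
Calr, chr8:84847070-84847098, minus strand: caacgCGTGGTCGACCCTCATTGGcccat
Canx, chr11:50325795-50325823, minus strand: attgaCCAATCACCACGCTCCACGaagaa
Dnajc3, chr14:118937822-118937850, plus strand: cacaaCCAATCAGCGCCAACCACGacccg
Pdia6, chr12:17266486-17266514, plus strand: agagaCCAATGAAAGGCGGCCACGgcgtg
Creld2, chr15:88819515-88819543, plus strand: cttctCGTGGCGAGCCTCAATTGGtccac
The first base of the element lies 65 bases before the annotated start in Hspa5, 212 and 107 in Hsp90b1, 162 in Calr, 145 in Canx, 105 in Dnajc3, 98 in Pdia6 and 126 in Creld2. The 7 genes carrying it did not move in 1 direction in the knockouts. Hspa5, Canx, Dnajc3 and Creld2 had differences of 0.09, 0.10, 0.13 and 0.12, and Hsp90b1, Calr and Pdia6 of -0.25, -0.28 and -0.14. A match is a description of these letters and not a measured binding site.

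Across libraries, Hspa5 and Hsp90b1 varied together within groups. With each group's mean subtracted, Pearson's r was 0.83 and Spearman's rho 0.85 over the 15 libraries (permutation p = 0.00036 and 0.00031, adjusted over 6 pairs 0.00216 and 0.00186). Pearson's r was 0.76 within controls and 0.90 within knockouts. It was 0.74 without control 7 and knockout 6, the pair of libraries farthest from the median of Hspa5. Leaving out control 7 and knockout 4 gave 0.75, with an adjusted permutation p of 0.0468. Levels of both genes also followed the first principal component, described by an r of -0.64 for Hspa5 and -0.88 for Hsp90b1 over the 15 libraries. That axis is general, since the median size of r with it was 0.59 over all genes tested and 0.53 over members, and its part in the pair's r was not tested. Of the members with an unadjusted p below 0.05, r with the axis was -0.88 for Hspb8 and 0.84 for Hsp90ab1. It was -0.46 for Hspb1, 0.56 for Dnajb9 and 0.49 for Hsph1. Pairs outside the 6 were not examined. The other 5 pairs examined did not pass. The Hsp90 gene Hsp90aa1 and the Hsp110 gene Hsph1 gave an r of 0.56 and a rho of 0.48 (permutation p = 0.0418 and 0.0805, adjusted 0.125 and 0.242). The duplicated Hsp70 genes Hspa1a and Hspa1b gave an r of 0.24 and a rho of 0.30 (permutation p = 0.378 and 0.301, adjusted 0.464 and 0.474). Without control 7 and knockout 4 their r was 0.49 (adjusted permutation p = 0.156). Hspa1a had 6 to 104 tags per library, which limits the precision of this r. For Hspa1b with Dnajb1 r was -0.29, for Cryab with Hspb2 0.22 and for Bag3 with Hspb8 -0.21, all with an adjusted permutation p of 0.464. The r of Bag3 with Hspb8 was 0.30 within controls and -0.68 within knockouts, and its rho over the 15 libraries was 0.04.

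**Figure D2:**
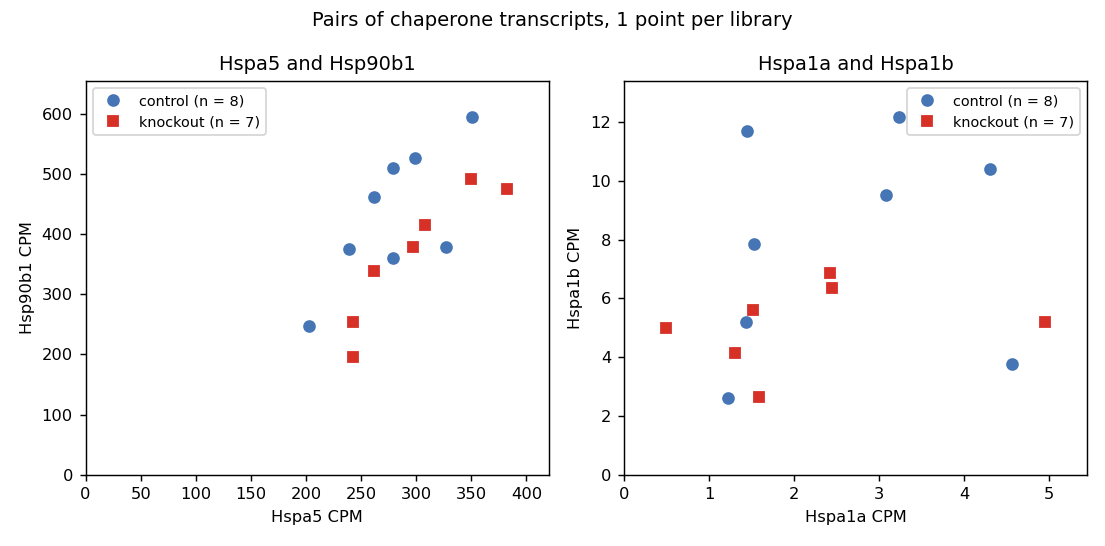
Levels of 2 pairs of chaperone transcripts in CPM, 1 point per library, for 8 controls (circles) and 7 knockouts (squares). Hspa5 and Hsp90b1 vary together within both groups (r = 0.83 after subtracting group means). For Hspa1a and Hspa1b r was 0.24, and 0.49 without control 7 and knockout 4, and neither passed.

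The small heat shock proteins gave 0 calls among 6 genes, with 4 differences negative, 2 positive and a median of -0.21. Hspb1 (Hsp25 of mouse), which binds actin and intermediate filaments, was the member nearest to a call. In controls its lowest level was 76.1 CPM, the median 105 and the highest 145, and in knockouts 60.7, 72.7 and 98.4 CPM. None of the 7 knockouts reached the control median, while knockouts 2 and 3, at 84.7 and 98.4 CPM, lay above the lowest control. The log2 difference was -0.50 ± 0.14, or 0.71-fold with an interval of 0.57 to 0.87 (unadjusted p = 0.0026, edgeR adjusted p = 0.0872). This value crossed the threshold with DESeq2 (adjusted p = 0.0252) and with edgeR when control 7 or knockout 3 was left out (adjusted p = 0.0477 and 0.0478). Hspb8, which works with Bag3 to send damaged proteins to autophagy, was at 74.9, 117 and 165 CPM in controls and 35.6, 90.4 and 102 CPM in knockouts. Again 0 of 7 knockouts were above the control median, and the lowest value of each group was in control 7 and in knockout 4. The difference of -0.57 ± 0.21 did not pass (unadjusted p = 0.0135, edgeR adjusted p = 0.215). With both of those libraries left out it was -0.52 ± 0.14, with an edgeR adjusted p of 0.0476 over 10975 genes. With 1 surrogate variable added to the fit it was -0.33 and did not pass (edgeR adjusted p = 0.146). Both settings were added after the data were examined.

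The tags behind these values differ in how well they name their gene. Tags were predicted as 27 bases from the 3′-most CATG of the GENCODE M21 transcripts (GRCm38), a usual anchoring site of SAGE that the labels do not name. For 37 of 38 members the tag of the 1 transcript chosen per gene occurs in no other gene, and the exception is Hspb1. Only 24 of 38 members have a single predicted tag over their transcripts, while Hspb1 has 2 and Hsph1 has 3. Other tags of such genes may add to their counts. The tags of Hspb1, Hspb8 and Hsp90ab1 are shown because these 3 members have the largest differences among those with an unadjusted p below 0.05. CATG is in capitals.
Hspb1, chr5:135889075-135889101, plus strand, coding exon: CATGgctacatctctcggtgcttcacc
Hspb8, chr5:116408766-116408792, minus strand, 3′ UTR: CATGgctctcaaaccatcaccaccaag
Hsp90ab1, chr17:45567908-45567934, minus strand, 3′ UTR: CATGtctacaagaatcttctatcctgt
The Hspb1 tag also occurs in the pseudogene Hsp25-ps1, so the Hspb1 count could hold its tags and is uncertain to that extent.

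Hspb2, whose product binds the kinase of myotonic dystrophy, had the most tags of the small heat shock genes. It was at 216, 467 and 611 CPM in controls and at 199.9, 401 and 476 CPM in knockouts. The difference was -0.35 ± 0.23, and 1 of 7 knockouts was above the control median. With the surrogate variable it was -0.07. Cryab (αB-crystallin), which protects desmin filaments, lies beside Hspb2 on the opposite strand of chromosome 9, and the 2 gene models overlap by 1030 bases. Both predicted tags lie outside that overlap. Cryab differed by 0.17 ± 0.19, from 181 ± 42.8 CPM in controls (SD, n = 8) to 204 ± 60.0 CPM in knockouts (SD, n = 7). Hspb6 (Hsp20) differed by 0.20 ± 0.17, with 6 of 7 knockouts above the control median. Hspb7, a small heat shock protein of heart and muscle, differed by -0.08 ± 0.29, and its control mean of 72.3 CPM included 162 CPM in control 4, while the other 7 controls ran from 30.2 to 77.5 CPM.

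**Figure D3:**
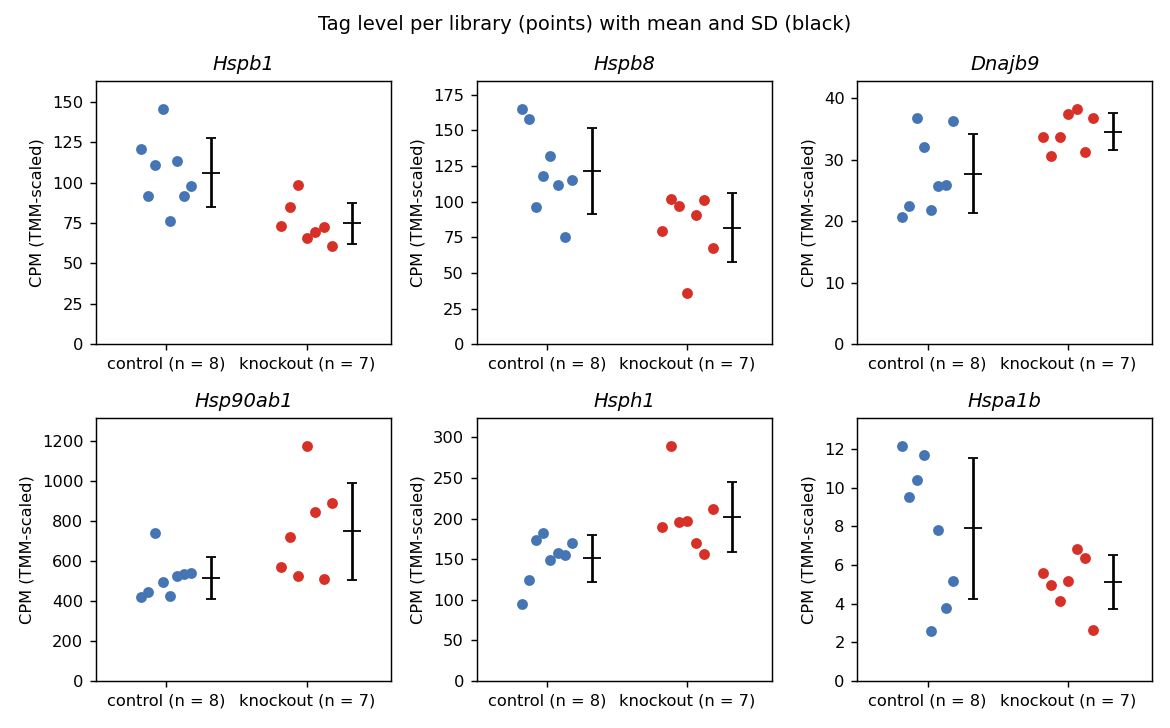
Levels in CPM of the 5 members with an unadjusted p below 0.05 and of Hspa1b, 1 point per library for 8 controls and 7 knockouts, with the mean and SD of each group in black. The groups overlap in all 6 panels, and knockouts of Hspb1, Hspb8 and Hspa1b all lie below the control median.

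Cytosolic Hsp70, Hsp90 and J-protein genes gave 0 calls among 10, with 3 differences positive and 7 negative and a median of -0.10. Hspa8 (Hsc70), the constitutive Hsp70, had by far the most tags of any member. It was at 3557, 4417 and 6841 CPM in controls and at 4514, 4953 and 5943 CPM in knockouts. All 7 knockouts were above the control median, yet the highest value was in control 3, and the difference was 0.07 ± 0.14. The fold change of 1.05 has an interval of 0.86 to 1.29. Hsp90ab1, the constitutive Hsp90, had the smallest unadjusted p of the class, with 418, 509 and 740.3 CPM in controls and 508, 719 and 1174 CPM in knockouts. Of 7 knockouts 6 were above the control median, the highest being knockout 4, and controls 3, 6, 7 and 8 stood inside the knockout range. The difference was 0.54 ± 0.18, or 1.45-fold with an interval of 1.11 to 1.90 (unadjusted p = 0.00897, edgeR adjusted p = 0.173). Without control 7 and knockout 4 it was 0.39 ± 0.17, and with the surrogate variable 0.30. Hsp90aa1, the stress-inducible Hsp90, had far fewer tags, at 10.7 ± 3.23 CPM in controls (SD, n = 8) and 9.75 ± 1.94 CPM in knockouts (SD, n = 7). It has 2 predicted tags, and how well the tags of either gene were captured was not tested. The Hsp90aa1 difference of -0.14 ± 0.19 is opposite in sign to that of Hsp90ab1.

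Hsph1 (Hsp110), a nucleotide exchange factor for Hsp70, was at 94.3, 157 and 183 CPM in controls and 157, 196 and 289.6 CPM in knockouts. All 7 knockouts were above the control median, and the difference was 0.42 ± 0.15 (unadjusted p = 0.0142, edgeR adjusted p = 0.221). Its relative Hspa4 (Apg-2) differed by -0.05 ± 0.18. Of the J-proteins that bring clients to Hsp70, Dnaja1 differed by -0.25 ± 0.14 (unadjusted p = 0.0808), and Dnajb1, at 1.44 ± 0.46 CPM in controls (SD, n = 8), by -0.02 ± 0.23. The Dnaja1 tag of the chosen transcript, 1 of 2 predicted, lies where the gene Smu1 is annotated on the opposite strand. The counting's use of strand is not given in the sources used here. Bag3, the co-chaperone of Hsp70 and Hspb8, differed by -0.21 ± 0.32. It was among the most variable members, with a coefficient of variation of 0.432 and values from 12.1 to 54.2 CPM in controls and from 14.2 to 48.5 CPM in knockouts. The highest control was control 1 and the highest knockout was knockout 4. The Bag3 difference was 0.000306 without control 1, -0.49 without knockout 4 and -0.47 without control 7 and knockout 4.

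The stress-inducible Hsp70 genes Hspa1a and Hspa1b had few tags. Hspa1b was at 2.61, 8.68 and 12.2 CPM in controls and 2.65, 5.19 and 6.85 CPM in knockouts, with 0 of 7 knockouts above the control median. Controls 5, 7 and 8, at 2.61, 3.77 and 5.19 CPM, lay as low as the knockouts, and the difference of -0.62 ± 0.30 did not pass (unadjusted p = 0.0521, edgeR adjusted p = 0.373). Hspa1a was at 1.22, 2.30 and 4.56 CPM in controls and 0.49, 1.59 and 4.95 CPM in knockouts, a difference of -0.29 ± 0.40. It had the widest spread of all members, with a coefficient of variation of 0.511. Its highest values were those of control 7 and knockout 4. The Hspa1a difference ran from -0.11 without control 7 to -0.70 without knockout 4, and was -0.53 without both. The proteins are near-identical, and the genes lie 9951 bases apart on the minus strand of chromosome 17, so the tags are shown to tell whether counts could be confused.
Hspa1a, chr17:34969417-34969443, minus strand, 3′ UTR: CATGtgttcagtttttacacaaccatc
Hspa1b, chr17:34956508-34956534, minus strand, 3′ UTR: CATGtctacactgccaccctgtgtaca
They differ at 16 of 27 positions, so the genes can be told apart by these tags.

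Heat shock factor sites were searched in the same promoters. The small heat shock and cytosolic members were chosen as chaperone genes by name, so their share of sites is likewise not independent of the choice. The heat shock element of 2 units, GAANNTTC or TTCNNGAA, was found in 6 of 11 promoters of small heat shock and cytosolic genes (54.5%), in 1 of 19 ER promoters (5.26%, Eif2ak3) and in 14.5% of all promoters. The 6 are Hspb1 with 2 matches, Hspb6, Hspa1a, Hspa1b, Hsph1 and Dnaja1. Hspa8, Hsp90aa1, Hsp90ab1, Hspb2 and Cryab had no promoter to read and were not searched. The element of 3 units, GAANNTTCNNGAA or TTCNNGAANNTTC, was in 0 of the 30 members with a promoter. It was in 0.51% of all promoters, so its absence from members says little. The forms of 2 and 3 units overlap by construction. The 6 genes with the shorter element had differences of both signs, from -0.62 in Hspa1b to 0.42 in Hsph1.

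Class medians varied between libraries. Relative to each gene's control median, the median log2 deviation over the 19 ER genes lay in knockouts between -0.13 in knockout 5 and 0.17 in knockout 1. Over the 6 small heat shock genes it was below 0 in 6 of 7 knockouts, lowest at -0.64 in knockout 4, and 0.10 in knockout 3. Controls ranged for the same 6 genes from -0.15 to 0.40, the highest being control 4. For the 10 cytosolic genes knockouts ran from -0.37 in knockout 7 to 0.27 in knockout 4. Knockout 4 or control 7 held the lowest or highest value of 18 of 35 members (51.4%), beside 63.0% of all genes tested.

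**Figure D4:**
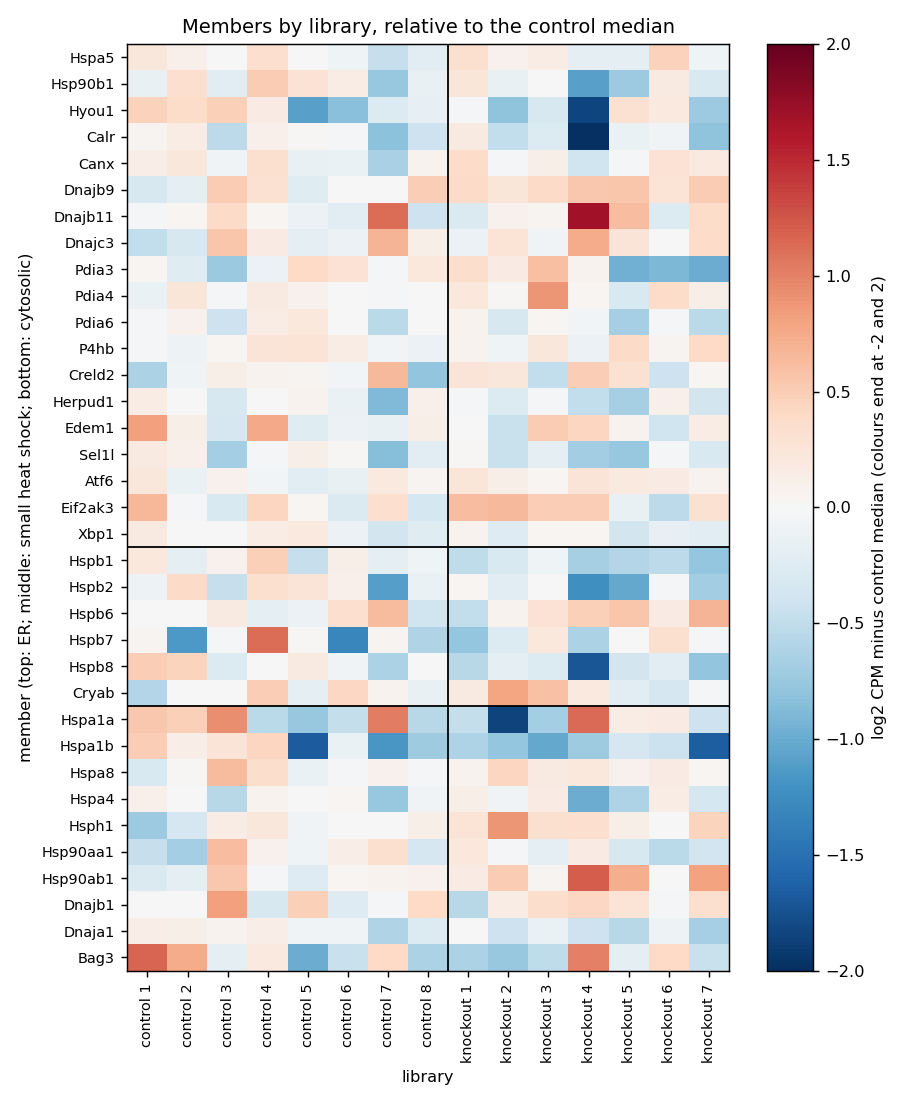
Log2 level of each member in each library minus the median of controls, for the 35 tested members (rows, in order of class) and 15 libraries (columns, controls left of the line); red is above and blue below the control median. No class is uniformly red or blue over the knockout columns, and knockout 4 shows the strongest colours, with Calr low at 2.29 CPM and Dnajb11 high at 20.7 CPM.

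Of 141 other genes of these pathways, listed with earlier results of these data known, 129 were tested. Of these 129, 2 were called, where 2.17% of all genes were, so calls were no more frequent here. At an unadjusted p below 0.05 there were 11.6%, beside 13.6% of all genes. The 2 genes called were also the only 2 of the 129 whose groups did not overlap, beside 1.19% of all genes. Both belong to the 30 further genes of ER degradation and the unfolded protein response. Trib3, a pseudokinase induced through ATF4 and CHOP, rose from 1.83, 4.66 and 5.37 CPM in controls (lowest, median and highest) to 6.03, 10.6 and 16.4 CPM in knockouts. Every knockout was above every control, and the difference was 1.43 ± 0.24 (edgeR adjusted p = 0.00174). Ppp1r15a (GADD34), the phosphatase subunit that reverses eIF2α phosphorylation, fell from 5.26, 6.65 and 8.32 CPM to 2.05, 4.26 and 5.16 CPM, again with no overlap. Its difference was -0.80 ± 0.18 (edgeR adjusted p = 0.0219). Atf4 itself, named here after its values were seen, was at 15.8 ± 1.66 CPM in controls (SD, n = 8) and 12.4 ± 2.29 CPM in knockouts (SD, n = 7). The Atf4 difference of -0.35 ± 0.13 did not pass (unadjusted p = 0.0174, edgeR adjusted p = 0.246), with 0 of 7 knockouts above the control median. Ddit3 (CHOP), also named after its values were seen, differed by -0.46 ± 0.26 (edgeR adjusted p = 0.454), with 1 of 7 knockouts above the control median. What lies behind the Trib3 rise was not tested. No gene was called by edgeR among 32 other genes of ER folding, translocation and glycosylation, where 16 differences were positive, 16 negative and 2 had an unadjusted p below 0.05. The same held for 41 heat shock factors and co-chaperones (4 below 0.05, all higher), 13 genes of the chaperonin TRiC and prefoldin (1 below 0.05), 11 partners and clients of small heat shock proteins (2 below 0.05) and the 2 cold-inducible genes Cirbp and Rbm3 (1 below 0.05). DESeq2 called 4 of the 129, adding Hspa4l, which was higher, and Vim, which was lower, and over all genes it called 3.41%. Without control 7 edgeR also called 4, adding Sec61b and Vim, both lower. The Ppp1r15a call was lost without control 6, without knockout 7 and with the replicate block, where Trib3 alone was called.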

How the data were processed

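Gastrocnemius RNA of 8 control and 7 knockout mice was read with the SOLiD SAGE kit, per the labels' protocols. The authors deposited raw tag counts per gene symbol and a table of normalized signal values, counts divided by 1 size factor per library, used here only as an alternative scaling. DESeq2 (version not given) and the builds mm10 and GRCm38.p1 stand in the submitters' processing notes, and the sources used here give no aligner, counting method or strand use. The table held 13602 genes and 360 empty rows, which were dropped. The test on counts was edgeR's (version 4.0.16, under R 4.3.3; robust quasi-likelihood test, TMM, filterByExpr with a minimum count of 10, group as the only term), with Benjamini-Hochberg adjustment over 11062 genes at 0.05, and the fit was tested on simulated data. The SE came from the fold change and the F statistic (log2 change over the root of F), and CPM values are on the TMM scale. Each library has a number of its own in the sample descriptions, and the labels count as many mice, but do not state what the numbers mark, so p-values measure the spread between these libraries.

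Groups came from the sample titles. Pairs were compared on log2 CPM (prior count 2) by two-sided permutation tests of 100000 resamples within groups. Tags were predicted from GENCODE M21 transcripts, and promoters were read from RefSeq. The text names every member, gives values over libraries for those nearest to a call and those with the most tags in each class, names up to 4 called genes of each further list, and reports Cpt1b. Members, classes and lists were chosen with earlier results of these data known. Alternatives were DESeq2 1.42.0, limma 3.58.1 voom, RLE, library size alone, the authors' size factors, no filter, a mean count of at least 50, the replicate block and leaving out each library, and, added after the data were examined, leaving out 2 libraries and a surrogate variable from sva 3.50.0.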

Additional observations from a re-analysis of the deposited data

Results flagged for a closer look

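In 70 groups of values (35 members in each genotype), 6 held a library whose distance to its nearest neighbour was large for the range of its group, and chance gives about 1 in 20. Dnajb11 had 14.01 CPM in control 7, where the next control had 8.335 CPM, and 20.72 CPM in knockout 4, where the next knockout had 9.83 CPM. Both libraries lie farthest along the first principal component of all genes. Hspb7 had 161.9 CPM in control 4 and 77.51 CPM in the next control. Knockout 2 held the highest level of Hspa8, 5943 CPM with 5122 CPM next, and of Hsph1, 289.6 CPM with 212.4 CPM next. Hsp90ab1 had 740.3 CPM in control 3 and 537 CPM in the next control, a library on the side of the knockouts.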

How the results depend on the processing

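Over 23 planned and 2 added alternatives, 23 of 35 members kept the sign of their difference and their side of the threshold in every one, 10 changed sign in at least 1 and 2 passed in at least 1. The 6 members with a mean count under 50 have no value under the stricter filter. The number of members called was 0, and 1 with DESeq2, 1 without control 7 and knockout 4, 1 with the surrogate variable, and 0 to 1 when single libraries were left out. The share of all genes called was 2.17% in the main fit, 3.41% with DESeq2, 3.67% without both libraries and 4.39% with the surrogate variable. The called member was Hspb8 (adjusted p = 0.0476) when both libraries were left out and Hspb1 in the other cases (0.0470 with the surrogate variable). Other genes of the pathways called numbered 2, and 4 with DESeq2, 4 without both libraries, 4 with the surrogate variable, 1 with the replicate block (Ppp1r15a was lost), and 1 to 4 without single libraries. The Cpt1b difference passed with DESeq2 (-1.03), without control 7 (-1.11), without both libraries (-0.94) and with the surrogate variable (-0.79), and it ran from -1.20 to -0.86 without single libraries. Replicate numbers did not pair the libraries, since same-numbered libraries correlated between -0.45 and 0.31 and 1 of 7 correlated best with its own number. With the replicate block 0 members were called.

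Among the members that changed sign, Dnajb1 was 0.0306 with library size alone, 0.00948 with voom and 0.0425 with the replicate block, and Hspb7 was 0.0612 with voom and 0.00952 with the block. With the surrogate variable the values were -0.11 for Dnajb11, -0.0617 for Dnajc3, -0.0537 for Creld2, 0.0497 for Herpud1, 0.0319 for Sel1l and 0.15 for Hspa4. Leaving out single libraries gave -0.0853 to 0.12 for Dnajb1, -0.19 to 0.20 for Hspb7, -0.17 to 0.0299 for Edem1, -0.49 to 0.000306 for Bag3, -0.0572 to 0.53 for Dnajb11 and -0.12 to 0.05 for Hspa4. Among pairs, r of Hsp90aa1 with Hsph1 was 0.67 with library size alone (adjusted permutation p = 0.0303), that of Cryab with Hspb2 was -0.0254 there, and that of Bag3 with Hspb8 was 0.53 without both libraries and -0.43 to 0.29 without single ones. The cause of these changes was not tested. Hspa1a, Dnajb1, Pdia4, Eif2ak3, Hyou1 and Creld2 had mean counts under 50, which limits their precision.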
